A study of Mus musculus with 6 samples.

Results

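The genes described here encode collagens, laminins and a small set of other extracellular matrix proteins: nidogens, perlecan, SPARC, fibulins, fibrillins, fibronectin and the small leucine-rich proteoglycans decorin, lumican and biglycan. They were chosen by gene symbol from the known genes of the deposited gene table, with a count of at least 60 summed over the 6 libraries. Of 69 genes with a matching symbol, 37 reached that minimum and 32 did not, out of 24459 genes in the table. Just inside the minimum were Nid1 with 63 counts, and Col19a1 and Col26a1 with 62 counts each. Just outside it were Col6a3 with 59, Col4a5 with 57 and Col27a1 with 56 counts. The tissue was perihematomal brain, the tissue around a clot, from wild-type mice at day 5 after an intracerebral haemorrhage (ICH, bleeding into the brain). After the bleed the mice received TEPP-46, an activator of pyruvate kinase M2, or vehicle, on 5 consecutive days. There were 3 TEPP-46 libraries (T1, T2 and T3) and 3 vehicle libraries (C1, C2 and C4), made from total RNA with a nanopore cDNA-PCR kit. The comparison asks how the tissue around the clot differs in gene expression when TEPP-46 is given. Every mouse had a bleed, so neither group is an uninjured one. The labels do not tell whether each library is a separate animal, so p-values measure only the spread between these libraries.

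In the brain, matrix genes of this kind are expressed mainly by cells of the vessel wall and the meninges, and some by glia and neurons. Collagen IV, laminins, nidogens and perlecan build the basement membrane around vessels, to which endothelial cells, pericytes and astrocyte endfeet attach. Fibrillar collagens and fibronectin belong to interstitial matrix and to fibrous scar, which fibroblasts lay down after injury. SPARC is a collagen-binding glycoprotein secreted by several brain cell types, and decorin and lumican bind collagen fibrils. Values are CPM, counts scaled to a fixed library total, given in the order T1, T2, T3 for TEPP-46 and C1, C2, C4 for vehicle.

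Total gene counts were between 5286426 and 6025064 per library, and 18429 to 18985 genes had a count. The summed CPM of 8 neuron markers was 2857 to 4177 in TEPP-46 and 2622 to 3532 in vehicle libraries, and that of 10 astrocyte markers 2705 to 3004 in TEPP-46 and 2104 to 2795 in vehicle, so markers of brain cells were present in all libraries. Libraries within a group stood apart in other markers. The summed CPM of 19 microglia and macrophage markers was 1649.6, 3692 and 4759.9 in TEPP-46 and 1407, 7704 and 868 in vehicle, with C2 highest and C4 lowest of all 6. Ttr, a defining transcript of choroid plexus, was at 3151, 1778 and 3161 CPM in TEPP-46 and 4053, 0.526 and 13.6 CPM in vehicle, near 0 in C2 and low in C4. The summed CPM of 10 oligodendrocyte and precursor markers was 13201 to 15375 in TEPP-46 and 5381 to 13655 in vehicle, with the lowest value in C4. In bulk tissue, fewer cells of a type and less RNA per cell cannot be told apart.

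No matrix gene passed the test between TEPP-46 and vehicle. Of the 37, 36 had counts enough to be tested, Col19a1 being the exception, and 0 were called at an adjusted p under 0.05 in the quasi-likelihood test of edgeR, with Benjamini-Hochberg adjustment over all 14441 genes tested. Over all genes 0% were called by this rule. DESeq2 called 0 of the matrix genes too, and 0.569% of the 13877 genes to which it gave an adjusted p. The smallest edgeR adjusted p of a matrix gene was 0.657, for Col25a1. At an unadjusted p under 0.05, 2 matrix genes were higher in TEPP-46, Col25a1 and Col11a2, beside 1.88% of all genes tested. One matrix gene, Dcn, was lower at the same threshold, beside 4.05% of all genes tested. With vehicle library C2 left out, 6 matrix genes were higher and 3 lower by unadjusted p under 0.05, beside 4.51% and 5.67% of all genes, and 0 were called. The 6 were Col25a1, Col1a1, Col1a2, Col4a1, Sparc and Col3a1, and Col23a1 and Dcn were among the 3. With each library left out in turn, 0 to 6 matrix genes were higher and 0 to 3 lower. In 3 matrix genes (Col25a1, Col11a2 and Col15a1) every TEPP-46 library lay above every vehicle library, beside 5.67% of all genes, and in 1 (Col23a1) every TEPP-46 library lay below, beside 5.76%. The median log2 fold change of TEPP-46 over vehicle was 0.06 over the 36 genes and 0.01 over all genes, with 20 above 0 and 16 below, where 51.1% of all genes were above 0. By role, the median was 0.10 in the 4 fibrillar collagens, 0.31 in the 4 basement membrane collagens, -0.19 in the 12 other collagens tested, 0.08 in the 6 laminins, 0.23 for Nid1 and Hspg2, 0.34 in the 6 glycoproteins and -0.06 for the 2 small leucine-rich proteoglycans.

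**Figure D1:**
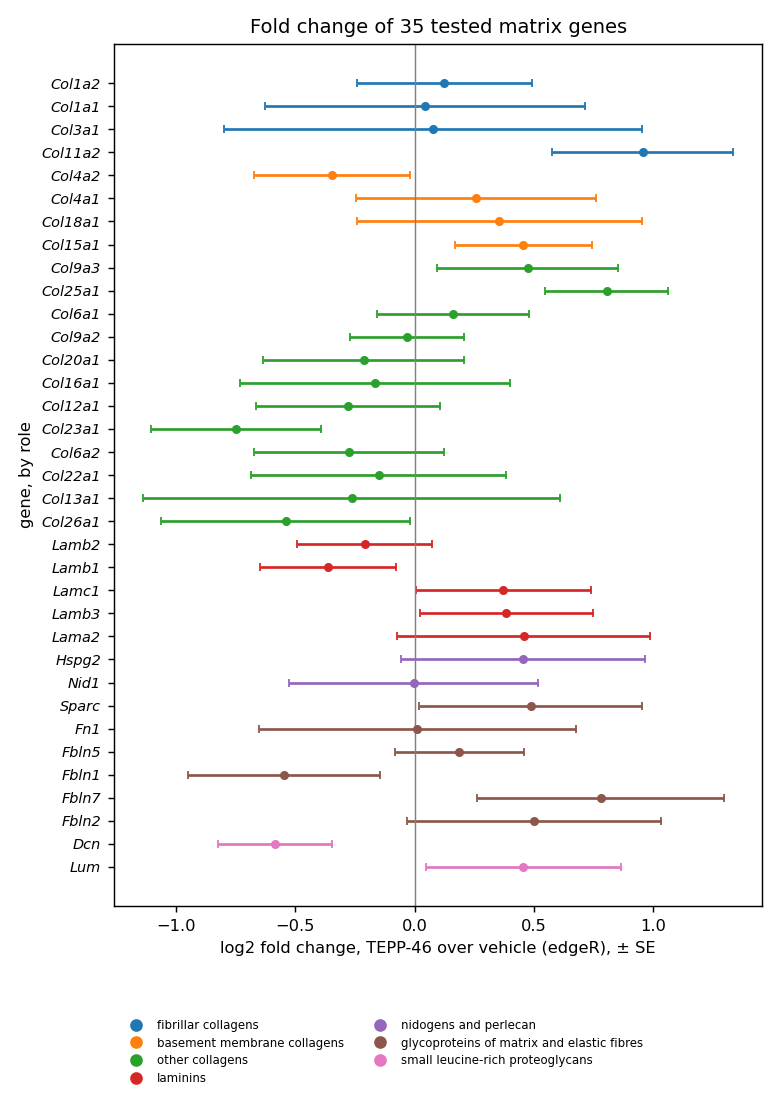
Log2 fold change of TEPP-46 over vehicle on the horizontal axis, for 35 of the 36 tested matrix genes, grouped and coloured by role. Points are edgeR estimates and bars are 1 standard error on each side. The estimates lie between -0.75 for Col23a1 and 0.95 for Col11a2, and none passed the adjusted threshold.

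The authors' deposited table gave the smallest p-values for the same 3 genes in another order. In the authors' deposited table Col25a1 had a p of 0.0133 with a log2 fold change of 0.53, Dcn a p of 0.0347 with -0.43, and Col11a2 a p of 0.0646 with 0.42. The authors' gene calls, per the file headers, asked for a p of 0.01, which none of the 37 genes reached.

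The secreted glycoproteins held most of the matrix counts. Sparc (ENSMUSG00000018593, chromosome 11, 55394500 to 55423183, GRCm38), which encodes the collagen-binding glycoprotein SPARC, was by far the most abundant of the 37 genes. It made up 62.1% to 65.5% of all matrix gene counts in TEPP-46 libraries and 40.8% to 59.4% in vehicle libraries. Its mean level over all libraries was 416 CPM. The next by mean CPM were Fn1 at 79.2, Dcn at 18.2 and Col9a3 at 13.4, and the lowest was Col26a1 at 1.85. Sparc was at 373, 468 and 621 CPM in TEPP-46 libraries and 339, 555 and 138 CPM in vehicle libraries. The TEPP-46 values all lay inside the vehicle range except T3, and the vehicle libraries were 4.01-fold apart from lowest to highest. On the log2 scale the fold change was 0.49 with SE 0.47, at an adjusted p of 0.985 in edgeR. With each library left out in turn the log2 fold change lay between 0.11 and 1.03. The upper end came without C2, with an edgeR adjusted p of 0.400. C2 was the highest vehicle library, so leaving it out raises the fold change.

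Fn1 (ENSMUSG00000026193, chromosome 1, 71585520 to 71653200, GRCm38) encodes fibronectin, which links fibrils to integrins on cells and enters tissue from the blood as well as from local synthesis. It was at 32.03, 84.5 and 124 CPM in TEPP-46 libraries and 47.2, 146 and 41.2 CPM in vehicle libraries. T1 was the lowest and C2 the highest of the 6, so the groups overlapped. The group means were 80.2 ± 46.1 CPM in TEPP-46 and 78.3 ± 59.1 CPM in vehicle (SD, n = 3 each). For Fn1 the log2 fold change was 0.011 with SE 0.66, an edgeR adjusted p of 0.999, and its sign changed with the libraries and with the low-count filter. An antisense gene, Apol7d, overlaps Fn1 exons over at most 197 bases, and reads of the 2 strands cannot be told apart where the use of strand in counting is unknown.

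The fibulins bind elastic fibres and basement membranes. Fbln5, needed for elastic fibre assembly, was at 4.81, 6.4 and 5.28 CPM in TEPP-46 and 4.49, 4.74 and 5.11 CPM in vehicle, a narrow range in both groups, with a log2 fold change of 0.19 and SE 0.27. Fbln1 was at 1.66, 3.91 and 4.52 CPM in TEPP-46 and 5.99, 3.86 and 4.73 CPM in vehicle, with T1 lowest and C1 highest, and a log2 fold change of -0.55 with SE 0.40. Neither passed, with edgeR adjusted p of 0.993 and 0.967. Fbln2 and Fbln7 had 72 and 84 counts in all and log2 fold changes of 0.50 and 0.78 with SE 0.53 and 0.52.

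**Figure D2:**
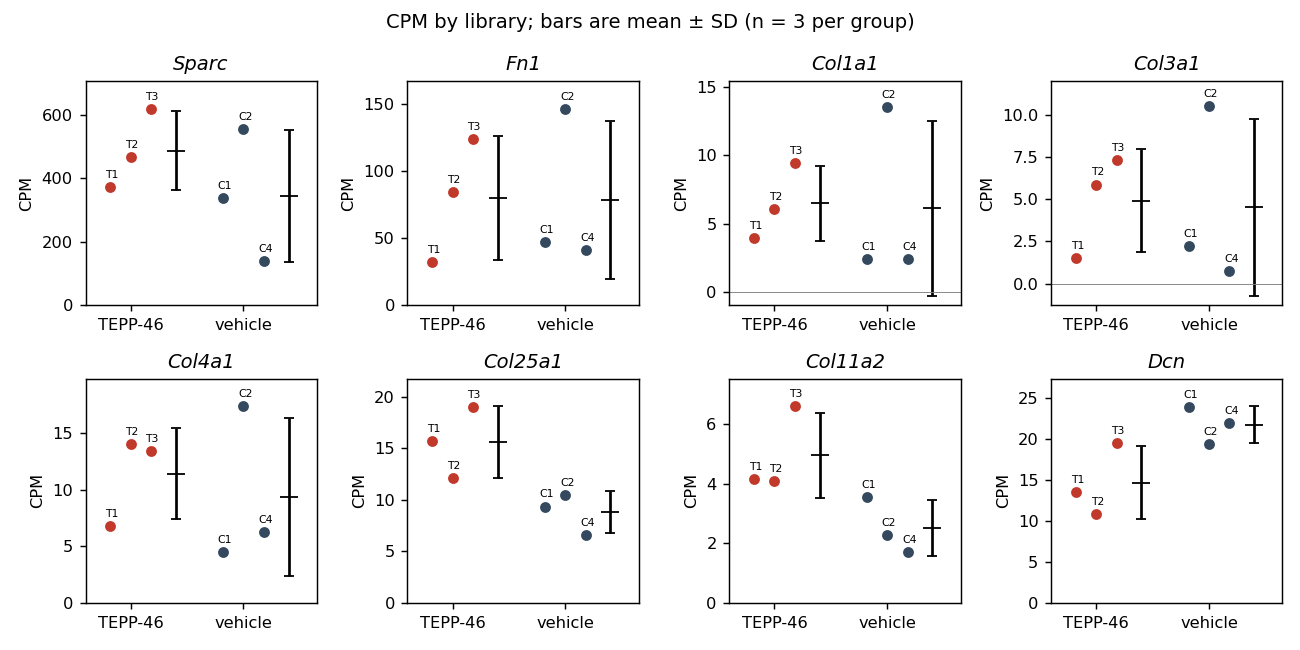
CPM of 8 matrix genes in each library, with TEPP-46 libraries on the left and vehicle libraries on the right of each panel. Points are libraries and bars are the group mean ± SD (n = 3 each). The vehicle libraries are far apart for Sparc, Fn1, Col1a1, Col3a1 and Col4a1, with C2 highest, and close together for Col25a1 and Dcn.

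No fibrillar collagen passed the test, and 3 of the 4 were highest in vehicle library C2. Collagen I, the main collagen of fibrous tissue, is a trimer of chains from Col1a1 and Col1a2. Col1a2 was at 10.8, 11.03 and 12.2 CPM in TEPP-46 and 6.55, 17.2 and 7.0 CPM in vehicle, so the TEPP-46 libraries lay close together between C4 and C2. Col1a1 was at 3.98, 6.05 and 9.42 CPM in TEPP-46 and 2.43, 13.5 and 2.46 CPM in vehicle, with C2 5.55 times as high as C1. Col3a1, which forms the collagen III homotrimer found beside collagen I, was at 1.49, 5.87 and 7.35 CPM in TEPP-46 and 2.25, 10.5 and 0.757 CPM in vehicle. C2 held 60 and C4 held 4 counts of Col3a1, the widest gap between vehicle libraries among the 37 genes. The log2 fold changes of Col1a2, Col1a1 and Col3a1 were 0.12, 0.04 and 0.08, with SE 0.37, 0.67 and 0.87 and edgeR adjusted p of 0.997, 0.998 and 0.998. Without C2, the highest vehicle library in each, they were 0.74, 1.39 and 1.68. Each had an edgeR unadjusted p under 0.05, with adjusted p of 0.363, 0.308 and 0.477. These are the upper ends over the libraries left out, and the lower ends were -0.11, -0.33 and -0.42.

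The share of Col1a1 in the counts of the collagen I pair differed between libraries. It was 26.97%, 35.4% and 43.5% in T1, T2 and T3, and 27.1%, 44.0% and 26.0% in C1, C2 and C4. T3 and C2, the libraries with the most counts of the pair in their groups, had the largest share. Col1a1 counts enter both the share and the count of the pair, so these are not separate observations. The exact 95% binomial intervals cover counting error only and take each count as a separate read. They ran from 18.1% to 37.4% in T1, the lowest TEPP-46 library, and from 36.5% to 51.7% in C2, the highest vehicle library. Where a read was counted for several isoforms of a gene, such intervals are too narrow.

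Col11a2 (ENSMUSG00000024330, chromosome 17, 34039437 to 34066685, GRCm38) encodes a chain of collagen XI, a minor fibrillar collagen best known from cartilage and the inner ear. It was at 4.15, 4.09 and 6.6 CPM in TEPP-46 and 3.56, 2.28 and 1.7 CPM in vehicle, on 124 counts in all. Every TEPP-46 library lay above every vehicle library, with T2 just above C1. The means were 4.95 ± 1.43 CPM in TEPP-46 and 2.51 ± 0.95 CPM in vehicle (SD, n = 3 each). The log2 fold change was 0.95 with SE 0.38, an unadjusted p of 0.0322 in edgeR and an adjusted p of 0.781, so the gene did not pass. DESeq2 gave an unadjusted p of 0.0658, and edgeR gave 0.0713 without C2, 0.0924 without C4 and 0.137 without T3. The most abundant isoform, Col11a2-201, overlapped between the groups, with an unadjusted p of 0.157 in edgeR. It was at 1.83, 2.31 and 3.01 CPM in TEPP-46 and 2.25, 1.23 and 0.946 CPM in vehicle. Col11a2-203 and Col11a2-202 had nearly the same count in every library, 29 and 28 in all, so a read may have been counted for both. Beside Col11a2, the summed CPM of 12 choroid plexus and ependyma markers (without Ttr and Enpp2) was 144, 121 and 152 in TEPP-46 and 121, 74.9 and 23.3 in vehicle. With Ttr and Enpp2, the sum of 14 markers was 4081, 2339 and 4028 in TEPP-46 and 5053, 279 and 202 in vehicle, highest in C1. The part of either sum in the Col11a2 values was not tested.

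No basement membrane collagen passed the test. Collagen IV is the network collagen of every basement membrane, and its commonest trimer joins chains from Col4a1 and Col4a2. These genes start head to head on chromosome 8 (Col4a1 on the minus strand, 11198423 to 11312826; Col4a2 on the plus strand, 11312805 to 11449287, GRCm38), and their annotated first exons overlap by 22 bases. The overlap is shown because reads that start in it could be given to either gene. It lies at chr8:11312805-11312826, written 5′ to 3′ on the plus strand from the RefSeq sequence of GRCm38.p6, with every base in capitals since the whole run is shared:
Col4a1 and Col4a2 shared start: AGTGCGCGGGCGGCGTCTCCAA
Col4a1 was at 6.8, 14.1 and 13.4 CPM in TEPP-46 and 4.49, 17.4 and 6.24 CPM in vehicle, with C2 highest and C1 lowest. Col4a2 was at 5.64, 11.2 and 11.7 CPM in TEPP-46 and 10.1, 15.8 and 9.84 CPM in vehicle, with C2 highest and T1 lowest. Neither passed: the log2 fold change was 0.26 with SE 0.50 for Col4a1 and -0.35 with SE 0.33 for Col4a2, with edgeR adjusted p of 0.997 and 0.983. Without C2 the log2 fold change of Col4a1 was 1.08, with an edgeR adjusted p of 0.367. That is the upper end over the libraries left out, and the lower end was -0.073.

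The 2 chains of collagen IV did not keep 1 ratio over the libraries. Col4a1 made up 54.7%, 55.6% and 53.4% of the pair's counts in T1, T2 and T3, and 30.8%, 52.4% and 38.8% in C1, C2 and C4. All 3 TEPP-46 libraries lay above all 3 vehicle libraries, though T3 and C2 were within each other's intervals. The exact 95% binomial intervals were 44.5% to 62.1% in T3 and 45.0% to 59.7% in C2, and 20.8% to 42.2% in C1, the lowest library. Here too each count was taken as a separate read, and the intervals are too narrow where that does not hold. The share was given no test, since this was 1 of 7 pairs of genes looked at.

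**Figure D3:**
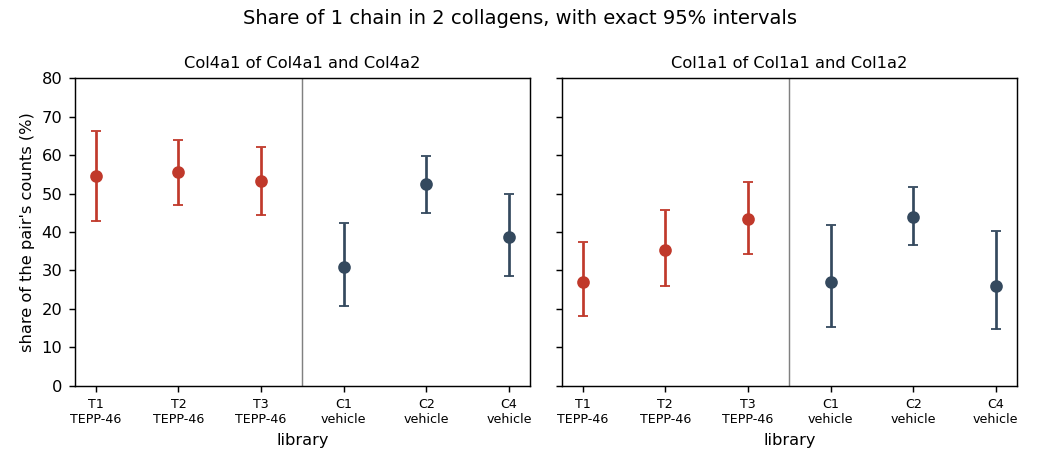
Share of 1 chain in the counts of a collagen pair, in percent, for each library: Col4a1 of Col4a1 and Col4a2 on the left, Col1a1 of Col1a1 and Col1a2 on the right. Points are the observed shares and bars exact 95% binomial intervals, which take each count as a separate read. The Col4a1 share is 53.4% to 55.6% in TEPP-46 and 30.8% to 52.4% in vehicle libraries, and the Col1a1 share overlaps between the groups.

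Collagens XV and XVIII are related collagens that carry heparan or chondroitin sulfate chains in the basement membrane zone, and each releases an antiangiogenic fragment from its end (endostatin from XVIII). Col15a1 (ENSMUSG00000028339, chromosome 4, 47208161 to 47313167, GRCm38) was at 4.32, 4.27 and 4.15 CPM in TEPP-46 and 3.0, 3.16 and 3.03 CPM in vehicle. Both groups were tight, at 4.24 ± 0.0877 CPM in TEPP-46 and 3.06 ± 0.0857 CPM in vehicle (SD, n = 3 each), and did not overlap. The counts behind these values were 22 to 26 in TEPP-46 and 16 to 18 in vehicle libraries, summed over isoforms. Col15a1-201, Col15a1-203 and Col15a1-204 each had 6, 6 and 5 counts in T1, T2 and T3. A read may thus have been counted more than once, and the tightness may rest on fewer reads. The most abundant isoform, Col15a1-202, overlapped, with 8, 6 and 7 counts in T1, T2 and T3, and 6, 8 and 5 in C1, C2 and C4. The genewise fit gave a log2 fold change of 0.46 with SE 0.29, an unadjusted p of 0.147 in edgeR and an adjusted p of 0.941. Col18a1 was at 4.32, 3.38 and 9.8 CPM in TEPP-46 and 4.31, 7.72 and 1.32 CPM in vehicle, with T3 highest and C4 lowest, a log2 fold change of 0.36 with SE 0.60. Beside these genes, the summed CPM of 17 endothelial markers was 544, 587 and 571 in TEPP-46 and 497, 619 and 570 in vehicle, and that of 15 pericyte and smooth muscle markers 106, 150 and 152 in TEPP-46 and 133, 148 and 135 in vehicle.

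Among the other collagens, Col25a1 had the smallest p of all 37 genes. Col25a1 (ENSMUSG00000058897, chromosome 3, 130131501 to 130599877, GRCm38) encodes a transmembrane collagen of neurons, whose shed part is found in amyloid plaques and which motor axons need to reach muscle. It was at 15.8, 12.1 and 19.03 CPM in TEPP-46 and 9.36, 10.5 and 6.62 CPM in vehicle. The lowest TEPP-46 library, T2, lay above the highest vehicle library, C2. The means were 15.6 ± 3.47 CPM in TEPP-46 and 8.84 ± 2.0 CPM in vehicle (SD, n = 3 each). The log2 fold change was 0.80 with SE 0.26, an unadjusted p of 0.0123 in edgeR and an adjusted p of 0.657, so it did not pass. The summed CPM of 8 neuron markers beside it was 4177, 3368 and 2857 in TEPP-46 and 3532, 2622 and 3512 in vehicle, a range in which the groups overlapped. The log2 fold change of Col25a1 lay between 0.64 and 0.96 with each library left out in turn, and without T3 the unadjusted p was 0.0561.

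Col23a1 (ENSMUSG00000063564, chromosome 11, 51289920 to 51583918, GRCm38) encodes another transmembrane collagen that can be shed from the cell surface. It was at 2.49, 1.96 and 2.64 CPM in TEPP-46 and 3.93, 2.81 and 5.11 CPM in vehicle, so every TEPP-46 library lay below every vehicle library, on 104 counts in all. For Col23a1 the log2 fold change was -0.75 with SE 0.36, an unadjusted p of 0.0646 in edgeR and an adjusted p of 0.867.

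The sequences upstream of the 4 genes whose groups did not overlap are shown as a description. None of the 4 passed the test. Such genes were 3 above and 1 below vehicle among the 37, beside 5.67% and 5.76% of all genes tested. Each window holds the 250 bases before the transcript start in RefSeq on GRCm38.p6, all on the plus strand, written 5′ to 3′. Capitals mark letters found by a search of both strands for 4 motifs, and no 2 matches overlap in these windows. The TATA box was searched as TATAAA, which reads TTTATA on the other strand. The CCAAT box was searched as CCAAT, which reads ATTGG on the other strand. The GC box was searched as GGGCGG, which reads CCGCCC on the other strand. The AP-1 motif was searched as TGANTCA, which is its own reverse complement. The windows are chr3:130180595-130180844 for Col25a1, chr17:34038888-34039137 for Col11a2, chr4:47207762-47208011 for Col15a1 and chr11:51289670-51289919 for Col23a1. They touch no annotated exon.
Col25a1: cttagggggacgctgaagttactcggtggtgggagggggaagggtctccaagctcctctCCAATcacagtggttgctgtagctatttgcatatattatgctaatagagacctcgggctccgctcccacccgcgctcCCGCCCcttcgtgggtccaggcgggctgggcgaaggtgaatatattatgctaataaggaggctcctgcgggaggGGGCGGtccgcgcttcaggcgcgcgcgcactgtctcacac
Col11a2: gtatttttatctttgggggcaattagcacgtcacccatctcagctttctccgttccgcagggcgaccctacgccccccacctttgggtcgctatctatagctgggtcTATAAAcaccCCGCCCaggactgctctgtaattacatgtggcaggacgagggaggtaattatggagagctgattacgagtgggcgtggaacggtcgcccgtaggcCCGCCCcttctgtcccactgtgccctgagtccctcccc
Col15a1: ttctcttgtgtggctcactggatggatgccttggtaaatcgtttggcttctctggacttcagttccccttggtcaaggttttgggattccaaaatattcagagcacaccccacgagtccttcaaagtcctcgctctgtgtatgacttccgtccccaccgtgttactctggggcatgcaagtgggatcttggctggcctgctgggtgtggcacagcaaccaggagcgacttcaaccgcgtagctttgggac
Col23a1: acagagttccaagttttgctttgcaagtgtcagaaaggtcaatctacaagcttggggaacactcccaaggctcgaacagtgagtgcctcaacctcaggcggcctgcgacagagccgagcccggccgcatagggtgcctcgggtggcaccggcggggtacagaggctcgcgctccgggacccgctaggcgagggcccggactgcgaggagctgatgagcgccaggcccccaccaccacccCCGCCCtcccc
Col25a1 held 1 CCAAT box and 2 GC boxes, Col11a2 a TATA box 143 to 138 bases before the start and 2 GC boxes, Col23a1 1 GC box, and Col15a1 none of the 4 motifs. The RefSeq start of Col23a1 is the annotated gene start, those of Col11a2 and Col15a1 lie 299 and 149 bases before it, and that of Col25a1 lies 49344 bases inside the annotated gene. Of the 37 matrix genes, 27 had an upstream window in the RefSeq table, in 32 windows. GGGCGG or its complement was in 50% of these and in 32.7% of all 32851 windows, CCAAT in 31.2% and 33.8%, TATAAA in 9.38% and 12.4%, and TGANTCA in 3.12% and 6.75%. The median GC content was 60.4% in the 32 windows and 52.4% in all. A match of letters is a description of the window and not a binding site.

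Collagens VI and IX gave no difference past the test. Col9a3 and Col9a2 encode chains of collagen IX, a fibril-associated collagen known from cartilage. Col9a3 was at 13.3, 13.2 and 20.4 CPM in TEPP-46 and 16.5, 11.8 and 5.11 CPM in vehicle, with T3 highest and C4 lowest. In edgeR the log2 fold change was 0.47 with SE 0.38, at an adjusted p of 0.973. Col9a3 overlaps Tcfl5, a protein-coding gene on the other strand, over 234 bases of exon. The marker sums of choroid plexus and ependyma and of oligodendrocytes were also lowest in C4, and their part in the Col9a3 values was not tested. Col9a2 was nearly level, at 7.14, 6.76 and 8.1 CPM in TEPP-46 and 6.93, 6.84 and 8.51 CPM in vehicle. Its log2 fold change of -0.03 had an SE of 0.24, with 0.998 as edgeR adjusted p.

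Col6a1 and Col6a2 are neighbours on chromosome 10 and encode chains of the microfibril-forming collagen VI of vessels and meninges. Col6a1 was at 8.13, 11.6 and 6.97 CPM in TEPP-46 and 5.06, 9.47 and 9.08 CPM in vehicle, with T2 highest and C1 lowest. Col6a2 was at 2.66, 1.78 and 2.26 CPM in TEPP-46 and 1.87, 3.68 and 2.46 CPM in vehicle, with C2 highest and T2 lowest. The groups of both genes overlapped. Col6a1 made up 75.4%, 86.7% and 75.5% of the pair's counts in T1, T2 and T3, and 73.0%, 72.0% and 78.7% in C1, C2 and C4. The third chain gene of this collagen, Col6a3, missed the count minimum with 59 counts. The log2 fold changes were 0.16 for Col6a1 and -0.28 for Col6a2, with SE 0.32 and 0.40.

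Laminins are trimers of an alpha, a beta and a gamma chain, and none of the 6 laminin genes passed the test. The mean level over all libraries was 10.9 CPM for the beta chain gene Lamb2 and 7.37 CPM for Lamb1. It was 3.87 CPM for the gamma chain gene Lamc1 and 2.18 CPM for the alpha chain gene Lama2. Lamb2, a beta chain of vessels, synapses and kidney, was at 6.31, 12.3 and 11.9 CPM in TEPP-46 and 11.2, 10.5 and 13.1 CPM in vehicle, with T1 lowest and the other 5 libraries between 10.5 and 13.1. Lamb1, the beta chain of most early and vascular laminins, was at 4.65, 7.83 and 6.97 CPM in TEPP-46 and 9.36, 8.77 and 6.62 CPM in vehicle, with T1 lowest again and C1 highest. Lamb1 took 37.0% to 42.4% of the 2 beta chains' counts in TEPP-46 and 33.7% to 45.5% in vehicle libraries. Lamc1, the gamma chain of most laminins, was at 3.49, 4.62 and 5.09 CPM in TEPP-46 and 2.06, 4.56 and 3.4 CPM in vehicle, with C1 lowest. The log2 fold changes were -0.21 for Lamb2, -0.36 for Lamb1 and 0.37 for Lamc1, with SE 0.28, 0.28 and 0.37 and no edgeR adjusted p under 0.973. The alpha chains of vessels, Lama4 and Lama5, missed the count minimum with 28 and 43 counts in all, and Lama2, the alpha chain of astrocytes, pericytes and muscle, had 73. Lama4 had 9, 4 and 2 counts in T1, T2 and T3, and 3, 7 and 3 in C1, C2 and C4. Lama5 had 5, 11 and 7 counts in T1, T2 and T3, and 11, 4 and 5 in C1, C2 and C4.

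Nidogens and perlecan tie the laminin network to collagen IV. Hspg2, which encodes the heparan sulfate proteoglycan perlecan, was at 3.98, 2.85 and 3.77 CPM in TEPP-46 and 2.62, 4.21 and 0.757 CPM in vehicle, where C4 held 4 counts. Its log2 fold change was 0.45 with SE 0.51. Nid1 was at 1.33, 2.31 and 2.07 CPM in TEPP-46 and 0.936, 3.33 and 1.32 CPM in vehicle, on 63 counts, with C2 highest and C1 lowest, and a log2 fold change of -0.0036 with SE 0.52. Nid2 missed the minimum with 56 counts, 10, 11 and 20 in T1, T2 and T3, and 6, 9 and 0 in C1, C2 and C4. The edgeR adjusted p was 0.985 for Hspg2 and 0.999 for Nid1.

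Dcn, a small leucine-rich proteoglycan gene, had the smallest p of the matrix genes that were lower in TEPP-46. Dcn (ENSMUSG00000019929, chromosome 10, 97479609 to 97518143, GRCm38) encodes decorin, which binds collagen fibrils and the growth factor TGF-beta. It was at 13.6, 10.8 and 19.6 CPM in TEPP-46 and 23.97, 19.5 and 21.9 CPM in vehicle. T1 and T2 lay below every vehicle library, and T3 lay just above C2, so the groups overlapped. The means were 14.7 ± 4.47 CPM in TEPP-46 and 21.8 ± 2.25 CPM in vehicle (SD, n = 3 each). The log2 fold change was -0.58 with SE 0.24, an unadjusted p of 0.0354 in edgeR and an adjusted p of 0.793, so Dcn did not pass. Its log2 fold change was between -0.84 and -0.41 with each library left out in turn, and the unadjusted p was 0.104 without C1, 0.0612 without C4, 0.0917 without T1 and 0.132 without T2. Beside it, the summed CPM of 16 fibroblast and meningeal markers (without Ptgds) was 74.9, 107 and 104 in TEPP-46 and 135, 92.4 and 126 in vehicle, and its part in the Dcn values was not tested. Lum, next to Dcn on the same strand of chromosome 10 (97565128 to 97572703), encodes lumican and had 85 counts. It was at 2.66, 2.85 and 3.39 CPM in TEPP-46 and 1.87, 3.16 and 1.32 CPM in vehicle, with a log2 fold change of 0.46 and SE 0.41, the opposite sign to its neighbour. Bgn, which encodes biglycan, missed the minimum with 19 counts, and Dcn made up 96.3% to 98.4% of the counts of Dcn and Bgn in TEPP-46 and 95.7% to 97.5% in vehicle libraries.

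The spread between libraries of 1 group was wide for many of these genes. The 3 vehicle libraries were more than 3-fold apart in 14 of the 37 genes, beside 7.38% of the 14234 genes with a summed count of at least 60. C2 was the highest vehicle library in 11 of these 14 and C1 in 3. The TEPP-46 libraries were more than 3-fold apart in 6 of the 37, beside 3.91%. The highest of all 6 libraries was C2 in 12 of the 37 genes, beside 15.1% of all genes tested, and the lowest was C4 in 13, beside 25.3%. Summed over the 37 genes the CPM was 570, 754 and 981 in TEPP-46 and 571, 938 and 339 in vehicle. Without Sparc and Fn1 the sums were 164, 201 and 236 in TEPP-46 and 185, 237 and 160 in vehicle. Sparc and Fn1 made up the rest, so the sum of the 37 genes is mostly that of these 2.

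**Figure D4:**
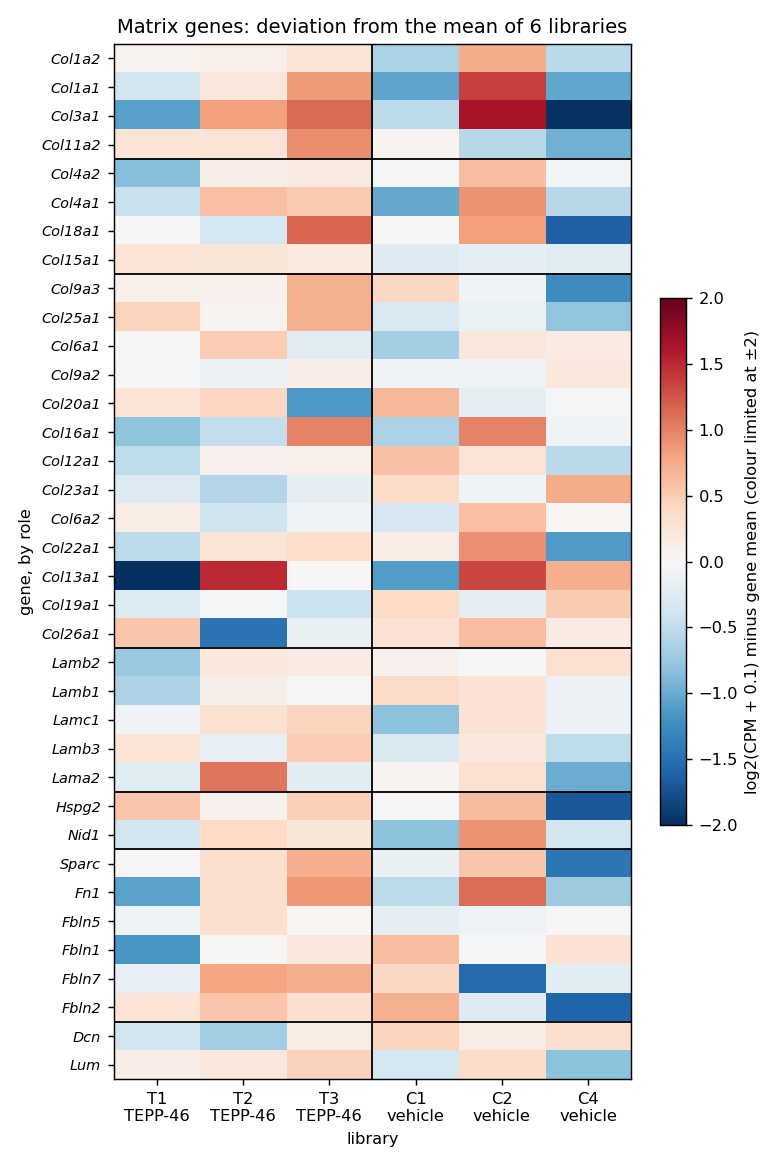
Deviation of each of 36 matrix genes from its own mean over the 6 libraries, as log2(CPM + 0.1), with genes in rows by role and libraries in columns, TEPP-46 on the left and vehicle on the right. Red is above and blue below the gene's mean, with colours limited at 2 on each side. The vehicle column C2 is red for most fibrillar and basement membrane collagens and the vehicle column C4 is blue for many genes.

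The libraries with high microglia and macrophage markers were also those with high Sparc, Fn1, Col1a1 and Col3a1. Spp1, the osteopontin gene of activated macrophages and microglia, was at 362, 1499 and 2220.1 CPM in TEPP-46 and 176, 3734 and 108 CPM in vehicle. Tyrobp, a signalling adaptor of myeloid cells, was at 187, 327 and 410.4 CPM in TEPP-46 and 179, 587 and 109 CPM in vehicle. C2 and T3 were the 2 highest libraries in both, as they were in Sparc, Fn1, Col1a1 and Col3a1. Other matrix genes had another order, with Dcn and Lamb1 highest in C1, Col6a1 and Fbln5 in T2, and Lamb2 in C4. How many of the 37 genes, or of all genes, were highest in C2 and T3 was not counted. The 16 fibroblast and meningeal markers summed to other values, with C1 highest and T1 lowest. In C1, Igf2 and Igfbp2 alone were at 48.7 and 33.7 CPM of a sum of 135. C2 and T3 were also highest in the astrocyte gene Gfap, at 158, 247 and 348 CPM in TEPP-46 and 175, 417 and 59.4 CPM in vehicle. The astrocyte gene Slc1a2 was instead highest in T2 and T1. The part of myeloid cells, fibroblasts or astrocytes in the matrix values was not tested.

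**Figure D5:**
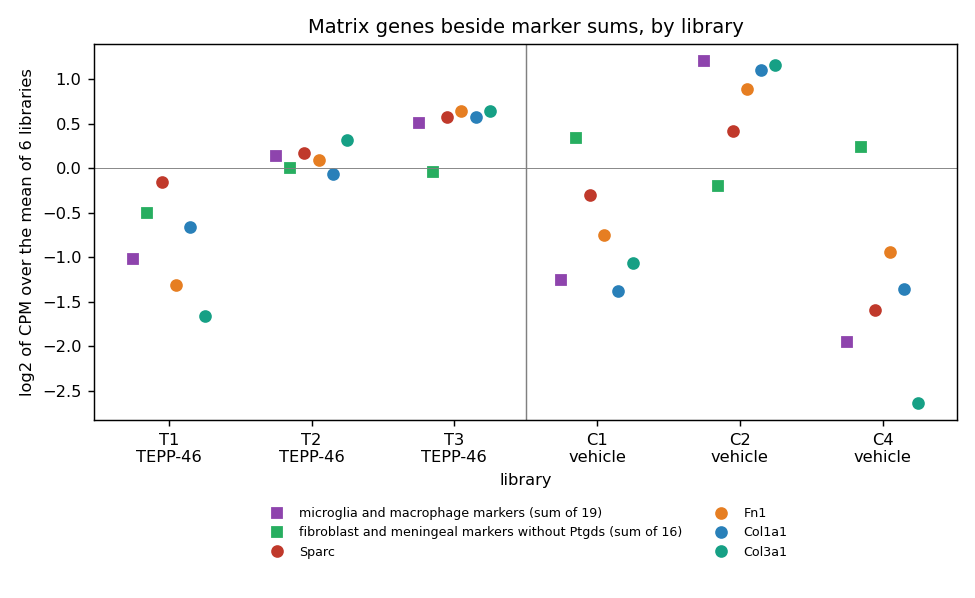
Log2 of CPM over the mean of the 6 libraries for Sparc, Fn1, Col1a1 and Col3a1 (circles) beside the summed CPM of microglia and macrophage markers and of fibroblast and meningeal markers without Ptgds (squares), by library, TEPP-46 on the left and vehicle on the right. All 4 genes and the microglia and macrophage sum are above their mean in T3 and C2 and below it in T1, C1 and C4. The fibroblast sum is highest in C1 and C4.

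The remaining 11 matrix genes had between 62 and 199 counts each and lay between 0.166 and 9.999 CPM in single libraries. They are Col20a1, Col16a1, Col12a1, Lamb3, Fbln7, Col22a1, Lama2, Fbln2, Col13a1, Col26a1 and the untested Col19a1. Of the 10 tested, 4 had a log2 fold change above 0 and 6 below, from -0.54 for Col26a1 to 0.78 for Fbln7, and the smallest unadjusted p was 0.166. Col13a1, a transmembrane collagen of the neuromuscular junction, had 1, 22 and 7 counts in T1, T2 and T3, and 3, 20 and 12 in C1, C2 and C4, the widest gap within TEPP-46. Col16a1, a fibril-associated collagen, was at 9.99 CPM in T3 and 9.999 CPM in C2, and at 2.82 to 4.73 CPM in the other 4 libraries. Lama2 overlaps the antisense gene Gm48084 over 538 bases of exon and Nid1 the antisense gene Gm48682 over 143, so counts of these genes are uncertain where strand was not used.

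No isoform of a matrix gene passed the test. The 37 genes had 106 isoforms with counts, 99 known and 7 new, of which 54 were tested and 0 called by edgeR at an adjusted p under 0.05, as in 0% of all 33854 isoforms tested. Unadjusted p under 0.05 was found for 2 isoforms higher in TEPP-46, beside 1.88% of all isoforms, and for 1 lower, beside 3.9%. Col25a1-202 was at 7.8, 7.83 and 10.2 CPM in TEPP-46 and 5.62, 6.49 and 4.92 CPM in vehicle, with a log2 fold change of 0.56 and SE 0.24. Col25a1-204 was at 4.81, 3.02 and 5.65 CPM in TEPP-46 and 2.81, 2.46 and 0.946 CPM in vehicle, with a log2 fold change of 1.08 and SE 0.40. In both isoforms every TEPP-46 library lay above every vehicle library. Dcn-201, the main decorin isoform, was at 8.3, 7.11 and 13.8 CPM in TEPP-46 and 16.1, 14.2 and 16.6 CPM in vehicle, so the TEPP-46 libraries lay below all vehicle libraries. Its log2 fold change was -0.72 with SE 0.25, while Dcn-202 was at 5.31, 3.74 and 5.84 CPM in TEPP-46 and 7.87, 5.26 and 5.3 CPM in vehicle, overlapping. The adjusted p of Col25a1-202, Col25a1-204 and Dcn-201 were 0.826, 0.761 and 0.683. These isoforms were picked by their unadjusted p, and the share of all isoforms whose groups did not overlap was not counted. Isoform usage, the proportions within a gene, was tested in 16 of the matrix genes and called in none, with a smallest unadjusted p of 0.454 for Fbln1, where it was called in 0.0131% of 7639 genes.

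The most abundant isoforms of the other leading genes followed their genes. Sparc-201 was at 126, 160.1 and 211 CPM in TEPP-46 and 114, 187 and 52.02 CPM in vehicle, 33.7% to 34.2% of Sparc counts in TEPP-46 and 33.6% to 37.6% in vehicle. Fn1-203 was at 6.14, 15.5 and 23.6 CPM in TEPP-46 and 8.61, 27.01 and 6.81 CPM in vehicle, with C2 highest as for the gene. Col9a3-203 was at 5.31, 4.98 and 8.1 CPM in TEPP-46 and 6.37, 4.74 and 2.08 CPM in vehicle. Col1a2-201 was at 6.31, 7.65 and 7.91 CPM in TEPP-46 and 3.56, 11.1 and 4.92 CPM in vehicle. Their log2 fold changes were 0.46, 0.04, 0.44 and 0.12 for Sparc-201, Fn1-203, Col9a3-203 and Col1a2-201, none with an unadjusted p under 0.05.

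Isoform counts are not independent of each other in these tables. Sparc-207 and Sparc-209 had the same count in every library, 1997 each in all, as had Fbln7-201 and Fbln7-202 with 42 and Hspg2-201 and Hspg2-203 with 51. The gene count equalled the sum of the isoform counts in every library for 37 of the 37 genes. Whether a read was divided between isoforms or counted for more than 1 was not tested, so a level compared between genes can depend on how many isoforms a gene has. The cellular fibronectin exons show the same limit. EIIIA (chromosome 1, 71603660 to 71603929, 270 bases, exon 33 of Fn1-201) and EIIIB (71613763 to 71614035, 273 bases, exon 25) are left out of the plasma form made by liver and kept by cells in injured tissue. EIIIA is in 4 of the 7 tested Fn1 isoforms (57.1%) and its isoforms took 51.8% to 55.8% of their counts in TEPP-46 and 51.9% to 56.0% in vehicle libraries. EIIIB is in 1 of the 7 (14.3%), and took 13.7% to 16.3% in TEPP-46 and 13.6% to 15.6% in vehicle libraries. These shares lie near what an even split over isoforms gives, and exon use was not read from them.

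Genes that act on the matrix did not pass the test either. Of 19 tested genes for collagen folding, modification and cross-linking, 1 was higher and 0 were lower by unadjusted p under 0.05, with a median log2 fold change of 0.01. Over all genes tested, 1.88% were higher and 4.05% lower by this rule, and the counts of all lists are to be read beside these shares. The higher gene was Adamts3, which trims procollagen ends, at 4.48, 3.38 and 3.58 CPM in TEPP-46 and 2.06, 2.81 and 1.51 CPM in vehicle, with a log2 fold change of 0.82, SE 0.36 and an edgeR adjusted p of 0.838. Of 14 tested matrix proteases and inhibitors, 0 were higher and 0 lower, with a median of 0.16. The 2 with the highest mean CPM were Serpine2, an inhibitor of thrombin and plasminogen activators, at 147, 147 and 177 CPM in TEPP-46 and 136, 189 and 101 CPM in vehicle, and the metalloproteinase inhibitor Timp2, at 65.1, 74.7 and 58.8 CPM in TEPP-46 and 54.5, 65.3 and 69.8 CPM in vehicle. Of 22 tested matrix receptors, 1 was higher and 1 lower, with a median of 0.16. Sgce, a sarcoglycan of the dystroglycan complex, was at 56.8, 52.1 and 81.4 CPM in TEPP-46 and 45.3, 48.1 and 42.9 CPM in vehicle, with every TEPP-46 library above every vehicle library and an adjusted p of 0.781. Itga8, an integrin alpha chain that binds fibronectin, had 10, 4 and 4 counts in T1, T2 and T3, and 18, 12 and 11 in C1, C2 and C4, with an adjusted p of 0.765. Of 16 tested ligands, receptors and targets of TGF-beta, a main inducer of collagen genes, 1 was higher and 0 lower, with a median of -0.06. This was Smad4, the shared signal transducer of the pathway, at 9.79, 9.25 and 9.42 CPM in TEPP-46 and 7.12, 4.56 and 4.35 CPM in vehicle, with a log2 fold change of 0.82, SE 0.27 and an adjusted p of 0.657. The ligand gene Tgfb1 had too few counts to be tested, with 1, 0 and 1 counts in T1, T2 and T3, and 6, 11 and 8 in C1, C2 and C4, so every TEPP-46 library lay below every vehicle library. The folding gene P4ha3, with too few counts as well, went the other way. It had 4, 9 and 9 counts in T1, T2 and T3, and 1, 0 and 0 in C1, C2 and C4. Counting tested and untested genes, the groups did not overlap, with TEPP-46 higher and lower, in 2 and 1 of the 29 folding genes, 2 and 0 of the 27 proteases and inhibitors, 2 and 1 of the 29 receptors, and 1 and 1 of the 20 TGF-beta genes in the table. Of all genes tested, 5.67% did not overlap with TEPP-46 higher and 5.76% with TEPP-46 lower.

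Markers of the cells that make matrix were counted in the same way. Of 11 tested fibroblast and meningeal markers 0 were higher and 2 were lower by unadjusted p under 0.05, with a median log2 fold change of -0.28, beside 1.88% and 4.05% of all genes tested. Igfbp2, a binding protein of insulin-like growth factors, was at 8.8, 14.6 and 18.5 CPM in TEPP-46 and 33.7, 22.98 and 34.05 CPM in vehicle, with every TEPP-46 library below every vehicle library and an edgeR adjusted p of 0.477. Slc22a6, an organic anion transporter, was at 1.99, 1.07 and 1.88 CPM in TEPP-46 and 3.93, 2.46 and 4.35 CPM in vehicle, again without overlap, with an adjusted p of 0.715. As many of the 17 listed fibroblast and meningeal markers lay wholly above vehicle. Mfap5, a microfibril-associated glycoprotein gene, had 4, 11 and 4 counts in T1, T2 and T3, and 1, 1 and 0 in C1, C2 and C4, too few to be tested. Pdgfra, a receptor of fibroblasts that is also on the oligodendrocyte precursor list, had 74, 64 and 81 counts in T1, T2 and T3, and 59, 55 and 57 in C1, C2 and C4, with an adjusted p of 0.965. Of 14 tested pericyte and smooth muscle markers 0 were higher and 1 lower, with a median of 0.04. Myh11, the smooth muscle myosin heavy chain, was at 3.82, 5.51 and 5.46 CPM in TEPP-46 and 10.7, 9.82 and 9.27 CPM in vehicle, with a log2 fold change of -1.02, SE 0.25 and an adjusted p of 0.475. Of 17 endothelial markers 1 was higher and 0 lower, with a median of -0.05. Tek, the angiopoietin receptor, was at 5.98, 15.1 and 5.46 CPM in TEPP-46 and 3.37, 3.16 and 2.84 CPM in vehicle, with T2 far above the rest and an adjusted p of 0.609. Of 14 choroid plexus and ependyma markers 3 were higher (Otx2, Clic6 and Ccdc153) and 0 lower, with a median of 0.89 where that of all genes was 0.01. Otx2 had 37, 21 and 29 counts in T1, T2 and T3, and 13, 1 and 0 in C1, C2 and C4, with an adjusted p of 0.657. Clic6 was at 5.64, 5.16 and 5.84 CPM in TEPP-46 and 4.31, 1.4 and 1.13 CPM in vehicle, and Ccdc153 at 12.3, 8.18 and 8.67 CPM in TEPP-46 and 6.55, 4.03 and 1.13 CPM in vehicle, with adjusted p of 0.731 and 0.739. In these 3 markers every TEPP-46 library lay above every vehicle library. Ttr, Enpp2, Kcnj13 and Kl of the same list were instead highest in vehicle library C1 and lowest in C2 and C4. Of the 18 microglia and macrophage, 10 astrocyte, 10 oligodendrocyte and 8 neuron markers tested, none was at an unadjusted p under 0.05 in either direction, with medians of 0.02, 0.09, 0.37 and 0.07. The astrocyte marker of highest mean CPM was the glutamate transporter gene Slc1a2, at 1881, 1968 and 1516 CPM in TEPP-46 and 1518, 1500.2 and 1405 CPM in vehicle. The oligodendrocyte marker of highest mean CPM was the myelin gene Mbp, at 10690.0, 8850.3 and 9681 CPM in TEPP-46 and 9304, 9121 and 3747 CPM in vehicle, lowest in C4. Among neuron markers the synaptic vesicle gene Syt1 was at 2226, 1622 and 1487 CPM in TEPP-46 and 1789.8, 1298 and 1603 CPM in vehicle and the synaptic fusion gene Snap25 at 465, 441 and 275 CPM in TEPP-46 and 359, 251 and 496 CPM in vehicle. The groups did not overlap, with TEPP-46 higher and lower, in 2 and 2 of the 17 fibroblast and meningeal markers, 2 and 1 of 15 pericyte and smooth muscle, 4 and 0 of 17 endothelial, 3 and 0 of 14 choroid plexus and ependyma, and 2 and 0 of 10 oligodendrocyte markers, beside 5.67% and 5.76% of all genes tested. There was no such gene among the 19 microglia and macrophage, 10 astrocyte and 8 neuron markers. A gene on 2 lists was counted in each. No gene of these lists passed the adjusted threshold, and none of their genes was at 0 in all 6 libraries.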

How the data were processed

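Per the labels' protocols, total RNA of perihematomal tissue was made into nanopore cDNA-PCR libraries. The authors deposited a gene and an isoform table with raw counts per library, per the file headers, and 12 further per-library columns were left out. P-values and log2 fold changes were deposited by the authors too, and the file headers name DESeq2. GRCm38 and DESeq 1.10.1 come from the submitters' processing notes. Aligner, counter and strand setting: not given in the sources used here. Column letters tie libraries to vehicle (C) or TEPP-46 (T), from the 2 group names alone, and no column number could be matched to a labelled sample.

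CPM was computed here from the deposited counts. Genes and isoforms were fitted as whole tables with edgeR 4.0.16 in R 4.3.3 (filterByExpr, TMM, robust quasi-likelihood F test, group as the single term), adjusted by Benjamini-Hochberg, after testing on simulated data. Isoform usage was tested with diffSpliceDGE. Alternatives were DESeq2 1.42.0, other scalings and filters, a membership minimum of 120 counts, and each library left out. Exon lengths, overlaps and coordinates came from GENCODE vM21 (GRCm38), and upstream sequences from RefSeq (GRCm38.p6). Values per library are given for the 4 members of highest mean CPM in each role, members at an unadjusted p under 0.05 or without overlap of the groups, and members of chain pairs; of the lists, for genes at p under 0.05, otherwise the 2 of highest mean CPM. Members, lists and naming rule were chosen with earlier results of these data known. Others named were chosen after their values were seen. A few genes that this rule names are not reported here.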

Additional observations from a re-analysis of the deposited data

How the results depend on the processing

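No matrix gene and no isoform of one was called under any alternative. Counts at an unadjusted p under 0.05 moved with single libraries. With each library left out, 0 to 6 matrix genes were higher and 0 to 3 lower. Over all genes, 1.24% to 4.51% were higher and 2.62% to 5.67% lower in the same fits. Of the isoforms, 0 to 9 were higher and 0 to 3 lower, and the shares over all isoforms were not counted for these fits. The most came without C2, with 6 genes higher and 3 lower, beside 4.51% and 5.67% of all genes. DESeq2 gave 1 gene higher, Col25a1, and Dcn lower, beside 1.17% and 3.93% of all genes. It gave 1 isoform higher, again without a share over all isoforms. The median log2 fold change of the members was between -0.11 and 0.44 over the libraries left out, 0.44 being the value without C2. The sign reversed with a library left out for 11 named genes, and the ranges over the libraries left out were -0.44 to 0.85 for Fn1, -0.11 to 0.74 for Col1a2, -0.33 to 1.39 for Col1a1, -0.42 to 1.68 for Col3a1, -0.073 to 1.08 for Col4a1, -0.23 to 1.03 for Col18a1, -0.079 to 0.33 for Col6a1, -0.48 to 0.040 for Col6a2, -0.10 to 0.078 for Col9a2, -0.37 to 0.047 for Lamb2 and -0.32 to 0.73 for Nid1. Fn1 was at -0.0030 with no low-count filter and Nid1 at 0.012 with library totals alone, and the cause was not tested. No paired analysis was possible because the column numbers do not match the numbers of the labelled samples. Low counts limit what could be detected, with 62 to 199 in the remaining 11 members. They were also low in named members, such as 63 in Nid1, 104 in Col23a1 and 124 in Col11a2. Intervals cover counting error only and take each count as a separate read.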
